A study of Arabidopsis thaliana with 24 samples.

Results

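The mil4 sid2 double mutant was compared with sid2 on 8 of the 24 Arabidopsis thaliana ATH1 arrays of the study, 4 arrays for each genotype, to read the effect of mil4 (MILDEW-INDUCED LESIONS 4) in plants that also carry sid2. The 8 arrays were chosen by their labels. Both genotypes carried sid2 and both were sprayed with water 2 days before rosettes were collected at 4 weeks, after growth at 22 °C under a 14 h photoperiod. The other groups, again of 4 arrays, were mil4 and Col plants under BTH at 300 µM or under water. Col is the wild type here, and BTH (benzothiadiazole) is a synthetic activator of the salicylic acid pathway. The alleles, the number of plants behind an array and the meaning of the replicate numbers were not stated in the sources used here, so p-values measure the spread between these arrays.

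Salicylic acid is a plant hormone that activates defence against biotrophic pathogens such as powdery mildew, and it is required for systemic acquired resistance. SID2 encodes isochorismate synthase 1 (ICS1), the chloroplast enzyme that makes most of the salicylic acid produced after infection. A sid2 mutant is therefore the usual background in which to ask what a lesion or defence mutation does when that route is blocked. ICS1, MIL4, PR1, PR2 and PR5 are named on no probe set in the annotation used. Probe sets without a gene name may include theirs and were not assigned to genes. No check of either genotype and no reading of these defence markers was therefore made here.

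Each value is a probe-set intensity on a linear scale, deposited after scaling to a trimmed mean near 500 on every array. Tests used log2(intensity + 16), a scale on which a change of a dim probe set is understated. The array medians lay between 151.9 and 165.6 for mil4 sid2 and between 154.6 and 185.0 for sid2. The highest of these belonged to sid2 replicate 1, on which 9.64% of the probe sets were under an intensity of 16, against 14.2% to 16.9% on the other 7 arrays. Pearson's r across probe sets was 0.953 to 0.974 within the groups and 0.946 to 0.974 between them. The GAPDH 3'/5' control ratio, a sign of RNA quality, was 1.08 to 1.11 in mil4 sid2 and 1.102 to 1.227 in sid2. The ubiquitin ratio was 2.21 to 2.91 and 2.42 to 2.65, and the actin ratio 8.04 to 10.3 and 6.88 to 14.5. The highest actin ratio of the 8 arrays, 14.5, was on sid2 replicate 1. That array also had the lowest mean r with its own group (0.953) and the lowest array weight (0.354). The part of RNA quality in the results was not tested. All 8 arrays were hybridised on 1 day, at 2 recorded hours taken here as runs 7 and 8. Each run held 2 arrays of each genotype. No array from outside this day carried sid2, so differences in level between the sid2 and SID2 backgrounds cannot be told apart from the day. Names were available for 13355 genes, and 8730 of the 22746 probe sets tested had none.

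In the sid2 background, mil4 was accompanied by changes in a small set of transcripts in the fit of all 24 arrays. With the 8 arrays fitted alone 0 probe sets passed, as given below. Among genes past the threshold, the largest named falls were in AT1G13650, AT5G48490 (a lipid transfer protein related to DIR1, a carrier protein of systemic acquired resistance) and AT1G68440, and the largest named rises were in AT5G50335, EXPA8 (an expansin, which loosens cell walls) and AT1G13470. Without sid2 replicate 1 these falls were still called, and these rises were not. At an adjusted p under 0.05, 107 of the 22746 probe sets differed between mil4 sid2 and sid2, which is 0.47% of those tested. Of these, 45 were higher in mil4 sid2 (0.198%) and 62 were lower (0.273%). A change of at least 2-fold was reached by 17 of the higher and 18 of the lower ones. For comparison, mil4 against Col under water gave 1684 probe sets (7.4%) in the same fit, 736 higher (3.24%) and 948 lower (4.17%). The median log2 fold change over all probe sets was -0.01, and the median size without its sign was 0.17, against 0.20 for mil4 over Col.

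The 4 mil4 sid2 arrays lay entirely above or entirely below the 4 sid2 arrays for 102 of the 107 probe sets, 40 above and 62 below. Over all probe sets, 909 were so placed above (4.0%) and 857 below (3.77%). Every one of the 107 had the same sign in run 7 as in run 8. For the 102 this follows from the lack of overlap. The 107 were also chosen on these arrays, so the equal sign is no separate check. The median size of the difference was 0.97 in run 7 and 0.68 in run 8, and it was larger in run 7 for 87 of the 107. Run 7 is the run that held sid2 replicate 1.

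The count depended on how the spread was estimated. A fit of the 8 arrays alone called 0 probe sets. It placed 2330 at an unadjusted p under 0.05, against 2542 in the fit of all 24 arrays. Every one of the 107 had an unadjusted p under 0.05 in the fit of the 8 arrays too, but they were chosen on these arrays. The log2 fold changes are the same in both fits, so no sign could change. Leaving out mil4 sid2 replicates 1 to 4 in turn gave 39, 24, 48 and 63 calls, and leaving out sid2 replicates 1 to 4 gave 41, 62, 50 and 105. The arrays of the groups also differed in fluidics module, and 21 probe sets were called with the module as a block. Replicates 1 to 4 were on modules 1, 4, 1 and 2 for mil4 sid2 and 2, 3, 3 and 4 for sid2. Among the 8 arrays module 1 thus held only mil4 sid2 and module 3 only sid2, so genotype and module were partly confounded.

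**Figure D1:**
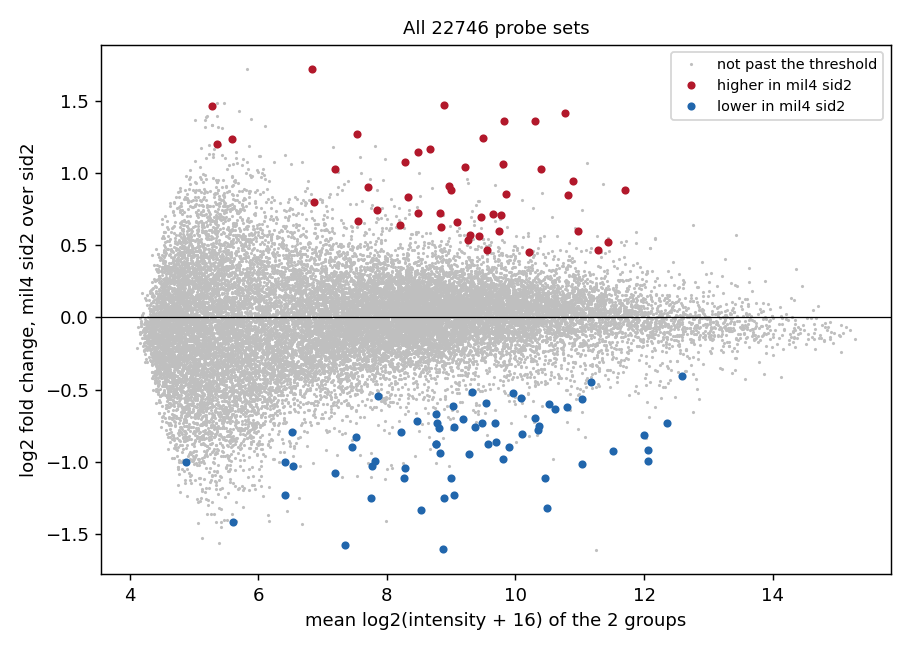
Log2 fold change of mil4 sid2 over sid2 (vertical axis) against the mean log2(intensity + 16) of both groups (horizontal axis) for all 22746 probe sets; red points are the 45 higher and blue points the 62 lower ones at an adjusted p under 0.05. Log2 fold changes past the threshold ran from -1.60 to 1.72, and the smallest of them in size was 0.40.

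The 107 probe sets named 37 genes, 17 higher and 20 lower in mil4 sid2, and for 35 of them the arrays did not overlap. Another 69 probe sets had no gene name and 1 named several genes. The named genes are taken below by the role of their products, a grouping made for description and not tested.

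**Figure D2:**
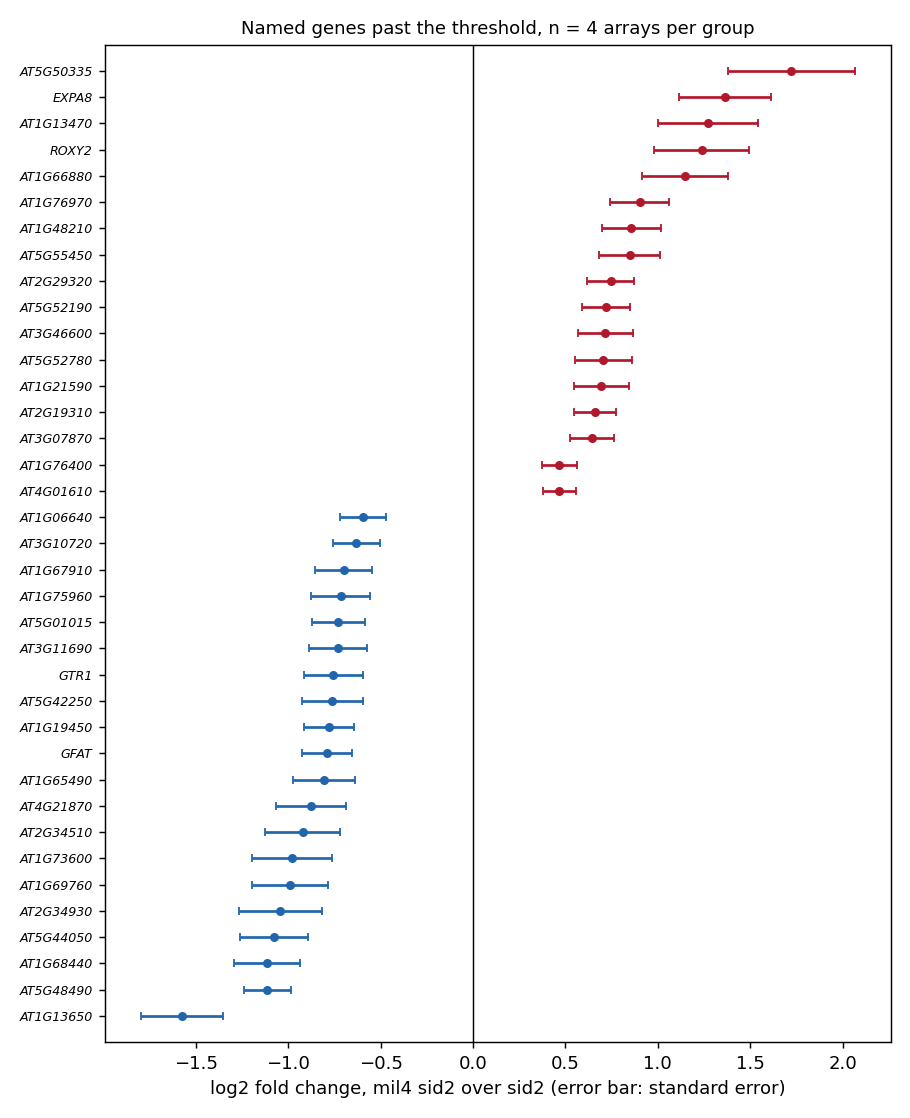
Log2 fold change of mil4 sid2 over sid2 for the 37 named genes past the threshold (4 arrays per group), ordered by value; bars are standard errors of the limma fit. The values run from 1.72 for AT5G50335 to -1.58 for AT1G13650.

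Among genes of cell surface and signalling proteins, 3 protein kinase genes were higher. AT1G66880, a receptor-like serine/threonine kinase gene, had intensities of 518, 612, 547 and 416 in mil4 sid2, against 233, 277, 127 and 309 in sid2. The groups did not overlap, and the log2 fold change was 1.15 (SE 0.23, adjusted p = 0.0303). AT1G48210, another kinase gene, read 1192, 1442, 1263 and 1061 in mil4 sid2, against 558, 666, 710 and 776 in sid2. Its lowest mil4 sid2 array was thus above every sid2 array (log2 fold change 0.86, SE 0.16, adjusted p = 0.0158). AT1G21590, also a kinase gene, was 1.62-fold higher, at a log2 fold change of 0.69 (adjusted p = 0.0384). In the other direction, AT2G34930, which encodes a leucine-rich repeat protein of a disease resistance family, had 263, 172, 191 and 184 in mil4 sid2, against 574, 352, 439 and 380 in sid2. All 4 mil4 sid2 arrays were lower (log2 fold change -1.04, SE 0.23, adjusted p = 0.0403).

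Genes of the lipid transfer protein family, small secreted proteins that bind lipids, moved in both directions. AT5G48490 had the smallest adjusted p of the comparison. Its intensities were 860, 964.5, 942 and 1025 in mil4 sid2, against 2236, 2244, 1960 and 1857 in sid2. The highest mil4 sid2 array was below the lowest sid2 array, and the level was 2.17-fold lower (log2 fold change -1.11, SE 0.13, adjusted p = 4.81e-04). AT5G55450 had 2403, 2950, 2498 and 1877 in mil4 sid2, against 1073, 1174, 1309 and 1884 in sid2. It was higher in mil4 sid2 (log2 fold change 0.85, SE 0.16, adjusted p = 0.0223), although sid2 replicate 4 overlapped the lowest mil4 sid2 array.

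Cell wall genes were called in both directions as well. EXPA8 had 1373, 1547, 1413 and 1394 in mil4 sid2, against 359, 650, 586 and 650 in sid2. The mil4 sid2 arrays were tightly grouped above the sid2 arrays, and the level was 2.57-fold higher (log2 fold change 1.36, SE 0.25, adjusted p = 0.0158). AT2G34510, a DUF642 gene whose family encodes secreted cell wall proteins, had 1846, 1996, 2173 and 2535 in mil4 sid2, against 5334.5, 3498, 4232 and 3373 in sid2 (log2 fold change -0.92, SE 0.21, adjusted p = 0.0482). AT3G10720, a pectin methylesterase gene, was 1.55-fold lower (log2 -0.63, SE 0.13, adjusted p = 0.029). Of the 17 genes measured on a list of 52 cell wall expansion genes, EXPA8 was the 1 higher and none was lower, and the list's median log2 fold change was -0.21, against -0.01 over all probe sets. EXLA1, an expansin-like gene on that list, had 1116, 1115, 1554 and 1909 in mil4 sid2, against 5800.5, 3773, 4124 and 3681 in sid2. Its arrays did not overlap, yet with a log2 fold change of -1.61 and an SE of 0.39 it did not pass the test (adjusted p = 0.0779).

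The 3 named transporter genes past the threshold were lower in mil4 sid2. AT5G44050, of the MATE efflux family, had 78.1, 98.9, 76.3 and 85.3 in mil4 sid2, against 265, 178, 166 and 188 in sid2. Every mil4 sid2 array was below every sid2 array (log2 fold change -1.08, SE 0.18, adjusted p = 0.00993). AT1G19450, of the ERD6-like sugar transporters, had 809, 891, 1175.5 and 1068 in mil4 sid2, against 2092.5, 1536, 1493 and 1687.5 in sid2. It was 1.72-fold lower (log2 fold change -0.78, SE 0.13, adjusted p = 0.0101). GTR1, which imports glucosinolates into cells for long-distance transport, had 470, 355, 387 and 367 in mil4 sid2, against 1007, 631, 588 and 550 in sid2. Its log2 fold change was -0.76 (SE 0.16, adjusted p = 0.0374), and it was the 1 lower among the 5 genes measured on the aliphatic glucosinolate list, whose median was -0.20 and of which none was higher. The adjusted p of SWEET13, a sucrose exporter, was 0.128 (log2 fold change -1.43, SE 0.40).

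Enzymes of primary and specialised metabolism made up the next group. GFAT, which opens the hexosamine pathway by making glucosamine 6-phosphate, was dim, with 53.7, 49.9, 55.9 and 56.0 in mil4 sid2, against 121, 101.5, 114 and 86.5 in sid2. The arrays did not overlap (log2 fold change -0.79, SE 0.13, adjusted p = 0.00993). AT1G73600, a phosphoethanolamine methyltransferase gene of phosphatidylcholine synthesis, had 513, 585, 657 and 749 in mil4 sid2, against 1573.5, 1276.5, 1050 and 1118 in sid2 (log2 fold change -0.98, SE 0.22, adjusted p = 0.0434). AT5G42250 (an alcohol dehydrogenase-like gene), AT1G75960 (an AMP-dependent acyl-activating enzyme gene) and AT1G06640 (a 2-oxoglutarate-dependent oxygenase gene) were lower too, by log2 fold changes of -0.76, -0.72 and -0.60. In contrast, AT2G29320, a tropinone reductase-like dehydrogenase gene, had 273, 304, 265 and 294 in mil4 sid2, against 176, 150, 187.5 and 142 in sid2. It was 1.67-fold higher (log2 fold change 0.74, SE 0.13, adjusted p = 0.0108). AT5G52190, a sugar isomerase family gene, was higher at 0.72 (SE 0.13, adjusted p = 0.014).

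Among the 37 called genes, 6 have products that act in protein folding, sorting, glycosylation or turnover, a choice made by hand after the values were seen. The lists nearest to these roles had no call, with 5 genes measured for folding and secretion and 10 for autophagy. AT2G19310, an HSP20-like chaperone gene, had 614, 682, 619.5 and 769 in mil4 sid2, against 429, 513.5, 354 and 387 in sid2. The groups were separate (log2 fold change 0.66, SE 0.11, adjusted p = 0.0101). A second HSP20-like gene, AT4G21870, lay on the other side (log2 fold change -0.88, SE 0.19, adjusted p = 0.0403). AT1G76970, of the TOM1-like proteins that bind ubiquitin during protein sorting, had 262, 284, 284 and 249 in mil4 sid2, against 115, 114, 152 and 175 in sid2 (log2 fold change 0.90, SE 0.16, adjusted p = 0.0126). The F-box gene AT3G07870 was higher at 0.64. AT1G76400, which encodes ribophorin I of the oligosaccharyltransferase in the endoplasmic reticulum, and AT4G01610, which encodes a cathepsin B-like protease, were each 1.38-fold higher, and neither overlapped between the groups.

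Regulatory and chloroplast genes were few. ROXY2, a CC-type glutaredoxin gene, was dim, with 57.8, 80.0, 48.1 and 50.5 in mil4 sid2, against 11.5, 9.7, 13.5 and 30.8 in sid2. Every sid2 array was below the mil4 sid2 arrays (log2 fold change 1.24, SE 0.26, adjusted p = 0.0336), and 3 of the sid2 values were under 16, where intensity carries mostly background. AT3G46600, a GRAS family regulator gene, was higher (log2 fold change 0.72, SE 0.15, adjusted p = 0.034). AT5G52780, a PAM68-like gene of chloroplast complex assembly, was higher at 0.71 (SE 0.15, adjusted p = 0.0403).

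The remaining named genes have no role given here, and 2 of them had the largest rise and the largest fall of the 37 called genes. AT5G50335 had 185, 211, 152 and 230 in mil4 sid2, against 19.5, 153, 50.7 and 23.7 in sid2. One sid2 array, replicate 2, overlapped the mil4 sid2 arrays, and the log2 fold change of 1.72 had an SE of 0.34 (adjusted p = 0.029). AT1G13650 had 82.8, 47.3, 80.5 and 113 in mil4 sid2, against 354, 313, 198 and 222 in sid2. It was 2.98-fold lower without overlap (log2 fold change -1.58, SE 0.22, adjusted p = 0.00256). AT1G68440 had 256, 361, 364.5 and 357 in mil4 sid2, against 808, 614, 924 and 639 in sid2 (log2 fold change -1.11, SE 0.18, adjusted p = 0.0078). AT1G13470, a DUF1262 gene, had 285, 347.5, 226 and 247 in mil4 sid2, against 92.5, 128, 59.5 and 157 in sid2. Its groups did not overlap (log2 fold change 1.27, SE 0.27, adjusted p = 0.0384). AT1G69760, AT1G65490, AT3G11690, AT5G01015 and AT1G67910 were lower, with log2 fold changes of -0.99, -0.81, -0.73, -0.73 and -0.70, and their arrays did not overlap.

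The unnamed probe sets included changes of the same size. The largest rises were in 254265_s_at and 246531_at, with log2 fold changes of 1.47 and 1.46, and the largest falls in 249337_at and 248911_at, with -1.60 and -1.42. All 4 sid2 arrays of 246531_at and 3 mil4 sid2 arrays of 248911_at were under an intensity of 16, so the size and rank of those 2 changes depend on the value added before the logarithm. The probe set 249337_at had 231, 226, 250 and 310 in mil4 sid2, against 904, 739, 894 and 678 in sid2 (adjusted p = 0.00798).

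**Figure D3:**
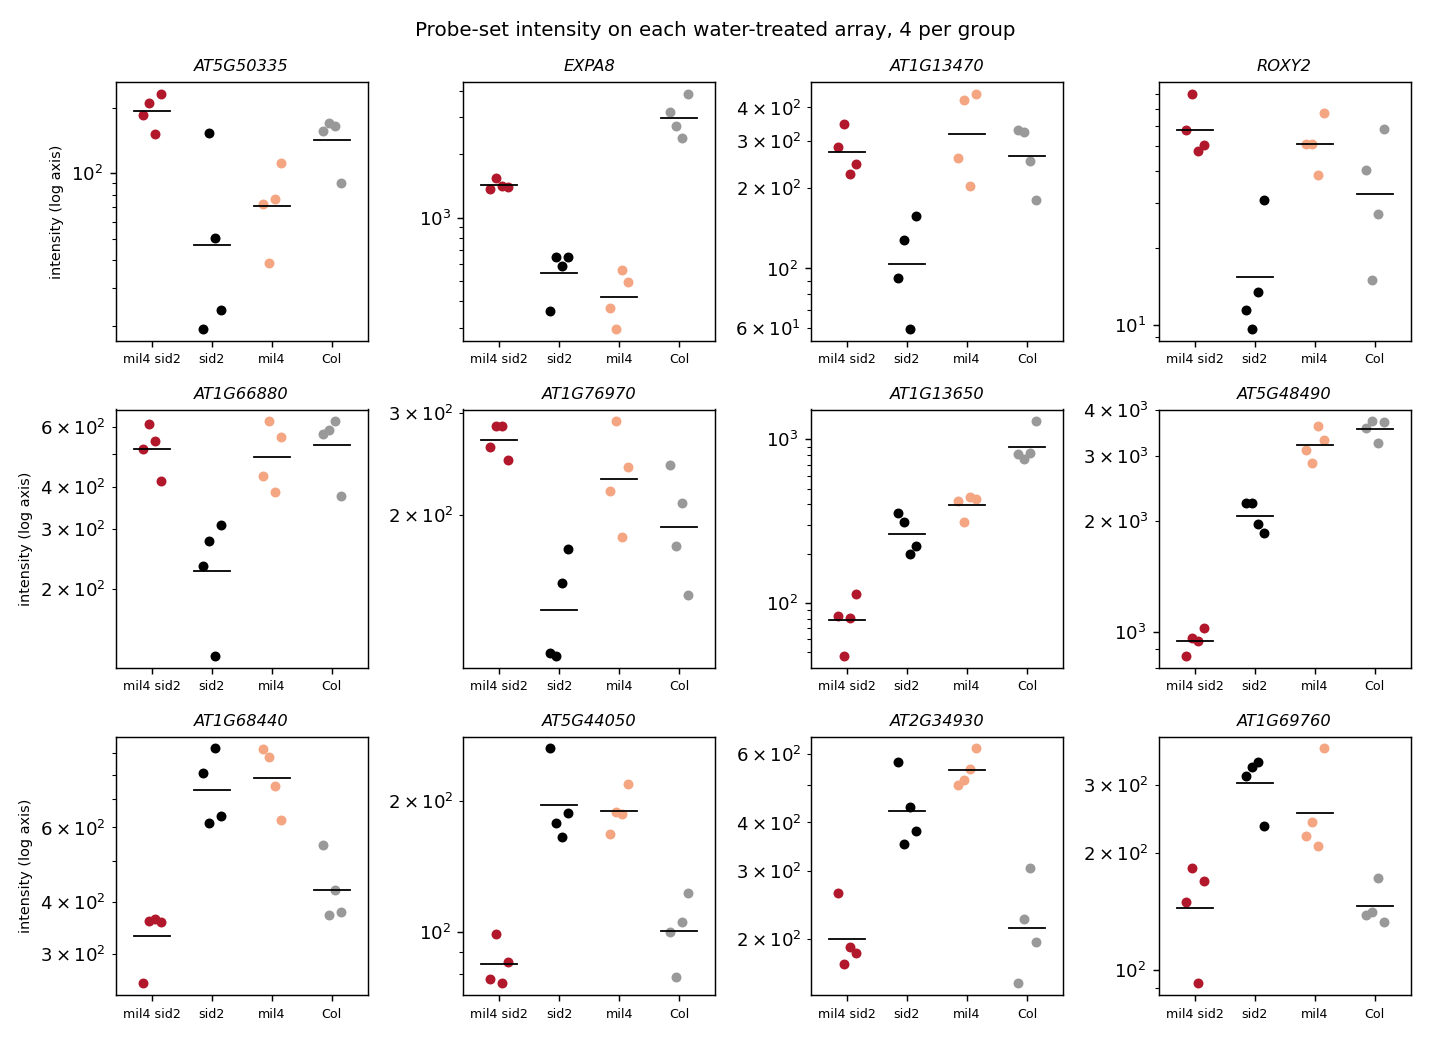
Intensity (log axis) on each of the 16 water-treated arrays for the 6 largest named rises and the 6 largest named falls in mil4 sid2 against sid2; points are arrays and lines are means taken on the log2(intensity + 16) scale. The mil4 sid2 and sid2 points are apart in 11 of the 12 panels, with 1 sid2 array of AT5G50335 inside the mil4 sid2 range; levels of the sid2 arrays against the mil4 and Col arrays cannot be told apart from the hybridisation day.

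The pathway and marker lists were small beside the 0.47% of probe sets called. At that share fewer than 1 call would fall among the 139 measured list entries. The same holds for the 164 measured family entries, some of which are also on a list. The lists held 2 calls, EXPA8 and GTR1, and the families held 1, EXPA8 again. A list without a call is therefore no result about that pathway. Of 31 pathway and marker lists, 28 had a measured gene, and 26 of these held no gene past the threshold in either direction. The salicylic acid response list had 2 of 21 genes measured, with none higher and none lower. WRKY53, whose product is a transcription factor active in ageing and infected leaves, had 300, 274, 338 and 255 in mil4 sid2, against 188, 199, 137 and 178 in sid2. The arrays were apart, but the log2 fold change of 0.69 had an SE of 0.23 and an adjusted p of 0.223. GRX480, a glutaredoxin gene induced through NPR1 and TGA factors, differed by 0.05 on the log2 scale (SE 0.27, adjusted p = 0.97). The list of salicylic acid synthesis and signalling had 4 genes measured, which ran from -0.31 to 0.21, and none passed. They included UGT74F1, which glucosylates salicylic acid, and BSMT1, which methylates it, whose intensities on the 8 arrays were at most 14.3 for UGT74F1 and 41.0 for BSMT1.

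Of 47 photosynthesis genes 9 were measured and 0 passed (smallest adjusted p = 0.581). Their log2 fold changes lay between -0.25 and -0.01, all 9 negative, and 52.1% of all probe sets had a negative value. In the stress lists 0 genes passed among 6 of pattern-triggered immunity, 7 of jasmonate and ethylene, 6 of oxidative stress and detoxification, 2 of tryptophan and camalexin, 10 of autophagy, 5 of endoplasmic reticulum folding and secretion, 1 of heat shock, 6 of cold and touch, 2 of abscisic acid and drought, and 1 of senescence and cell death. In the growth and metabolism lists 0 passed among 10 of auxin, 5 of other growth hormones, 11 of starch and sugar, 6 of flavonoids and anthocyanins, 9 of chlorophyll and carotenoid synthesis, 3 of the circadian clock, 3 of flowering and 2 of nutrition. Closest to the threshold among these were DFR, a flavonoid enzyme (log2 fold change -0.64, adjusted p = 0.0779), GSTU20, a glutathione transferase (-0.47, adjusted p = 0.0799), and COR27, a cold-regulated clock gene (1.04, adjusted p = 0.102). For COR27 all 4 mil4 sid2 arrays, from 1016 to 1500, were above the sid2 arrays, from 513 to 670.

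The cell type marker lists gave 1 root, 3 guard cell, 1 trichome, 1 vascular and 1 mesophyll gene measured, and 0 of them passed. The mesophyll gene, RCA (Rubisco activase), had a log2 fold change of -0.04. No gene of the floral, dividing cell or ribosome lists was named on a probe set. In bulk rosette RNA a change in the number of cells of a type and a change in RNA per cell cannot be told apart. Among 15 gene families, the expansins had the 1 call already described and 14 had none. The largest families measured were the UDP-glycosyltransferases with 47 genes and the cytochromes P450 with 23, with median log2 fold changes of 0.04 and 0.09.

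The changes were next set against those that mil4 showed in plants with SID2, from mil4 and Col arrays, as the design allows the mil4 effect to be read in both backgrounds. Of the 107 probe sets, 51 also passed the test in mil4 against Col, 14 in the same direction and 37 in the opposite one. The opposite sign was thus found in 72.5% of the 51, against 61.5% of all 1684 probe sets called in mil4 against Col (1036 of them) and 52.3% of all probe sets. Among probe sets above the median intensity, mil4 against Col called 5.71% higher and 6.75% lower. The difference between the mil4 effect in the sid2 background and in the SID2 background passed its own test (the mil4 by sid2 interaction) for 1210 probe sets (5.32%, 2.86% positive and 2.46% negative), 69 of them among the 107. These 69 are 64.5% of the 107 and 5.70% of the 1210. The interaction shares the sid2-background arrays with the comparison that chose the 107, so that share is a description. All 37 probe sets of opposite direction were among the 69. This follows from the definition, since effects of opposite sign add up in the interaction. Without sid2 replicate 1, 21 of 41 called probe sets were shared with mil4 against Col, 12 of them in the opposite direction. Without mil4 sid2 replicates 1 to 4 in turn, 12 of 19, 9 of 15, 13 of 21 and 16 of 28 were opposite. Without sid2 replicates 2 to 4 these were 18 of 26, 18 of 25 and 29 of 44, and 20 of 32 with median centring. In several of these fits the opposite share was close to or below 61.5%, and no test compared the shares. The mil4 and Col arrays were spread over several runs, and with the run as a block the interaction called 660 probe sets, the shared calls were 26 and those of opposite direction 22.

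EXPA8 had the largest interaction among the 37 called genes. Its log2(intensity + 16) level averaged 10.50 ± 0.08 in mil4 sid2 and 9.14 ± 0.40 in sid2, and 8.77 ± 0.40 in mil4 and 11.56 ± 0.30 in Col (SD, n = 4 each). Thus it was higher with mil4 in the sid2 background and lower with mil4 in the SID2 background, by a log2 fold change of -2.79, and the interaction was 4.15 (SE 0.35, adjusted p = 5.92e-07). AT2G29320, AT3G46600, AT5G52780, AT1G21590, AT5G52190 and AT2G19310 had the same pattern, with log2 fold changes in mil4 over Col of -1.04, -1.08, -0.79, -0.92, -0.43 and -0.47, and each passed both tests.

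Lower genes with the opposite direction in SID2 plants were AT2G34510 (log2 fold change of mil4 over Col 1.58), AT1G67910 (1.35), AT2G34930 (1.29), AT3G11690 (1.01), AT1G68440 (0.86), AT5G44050 (0.82), AT4G21870 (0.80), AT1G69760 (0.74) and AT1G06640 (0.50). In all, 16 of the 37 named genes were called in both comparisons with opposite signs. Only 3 of the 37 were called in both with the same sign, namely AT1G48210 (0.62 in mil4 over Col), AT1G73600 (-1.18) and AT1G13650 (-1.15). Among the 107, the unnamed probe set 249337_at had the widest difference in SID2 plants, a log2 fold change of 4.10 in mil4 over Col.

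AT5G48490 belonged to neither set. Its level averaged 9.91 ± 0.10 in mil4 sid2 and 11.02 ± 0.14 in sid2, and 11.66 ± 0.14 in mil4 and 11.81 ± 0.09 in Col (SD, n = 4 each). The mil4 over Col difference was -0.14 and did not pass, while the interaction of -0.97 did. GTR1, AT1G19450 and GFAT likewise passed the interaction, with values of -0.90, -0.71 and -0.66, without a call in mil4 against Col.

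The same 107 probe sets were then read in the BTH comparisons, whose group means came from none of the 8 sid2-background arrays. All water-treated mil4 and Col arrays were in fluidics modules 1 and 3, and all BTH-treated ones in modules 2 and 4. A difference due to BTH therefore cannot be told apart from one due to the module in these comparisons. BTH against water in mil4 shares the water-treated mil4 arrays with mil4 against Col, where they enter with the opposite sign. BTH against water in Col shares the water-treated Col arrays with it. The BTH results and those of mil4 against Col are therefore not independent of each other. The spread was estimated over all 24 arrays, so the choice of the 107 and the BTH calls share it, and probe sets with a small spread are favoured in both. BTH against water in mil4 raised 2200 probe sets (9.67%) and lowered 1768 (7.77%). Of the 45 probe sets higher in mil4 sid2, 31 were raised by BTH in mil4 (68.9%) and 1 was lowered. Of the 62 lower ones, 39 were lowered (62.9%) and 1 was raised. With the BTH comparison fitted on the 16 mil4 and Col arrays alone, 31 of the 45 were raised and 37 of the 62 were lowered, against 8.93% raised and 6.54% lowered over all probe sets. Without sid2 replicate 1 the counts in the fit of the remaining arrays were 10 of 18 higher probe sets and 13 of 23 lower ones. The 31 and 39 probe sets are 1.41% and 2.21% of those that BTH raised and lowered in mil4. Brighter probe sets were called more often, since among those above the median intensity BTH in mil4 raised 14.7% and lowered 14.2%.

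In Col, BTH raised 1528 probe sets (6.72%) and lowered 1358 (5.97%). Of the 45 higher in mil4 sid2, 23 were raised (51.1%) and 4 were lowered. The 62 lower ones were divided, with 18 lowered (29.0%) and 15 raised (24.2%). All 23 raised in Col were also raised in mil4, and 17 of the 62 lower probe sets were lowered by BTH in both genotypes. Above the median intensity, BTH raised 11.3% and lowered 10.5% of the probe sets in Col.

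Among the 17 higher named genes, 11 were raised by BTH in mil4 and 8 in Col, and 1 was lowered in Col. Over all probe sets BTH raised 9.67% in mil4 and 6.72% in Col. The 17 genes are part of the 45 probe sets counted above. AT1G66880 rose by log2 fold changes of 2.14 in mil4 and 1.80 in Col, AT1G13470 by 1.96 and 1.99, AT5G55450 by 1.80 and 2.01, and AT1G76970 by 1.21 and 1.11. The cathepsin gene AT4G01610 rose by 1.07 and 0.89, the kinase gene AT1G48210 by 0.86 and 1.02, and the F-box gene AT3G07870 by 0.82 and 0.78. EXPA8 did not follow them, with 0.19 in mil4 (not passing) and -0.92 in Col (passing).

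Among the 20 lower named genes, 13 were lowered by BTH in mil4 and 1, GFAT, was raised. In Col 7 were lowered and 4 raised. Over all probe sets BTH lowered 7.77% and raised 9.67% in mil4, and lowered 5.97% and raised 6.72% in Col. These genes are part of the 62 probe sets counted above. AT2G34930 had log2 fold changes of -1.40 in mil4 and -0.83 in Col, AT5G44050 of -1.36 and -1.01, GTR1 of -1.02 and -0.73, and AT1G19450 of -0.76 and -0.53. AT5G48490 had -1.21 in mil4, and its value of -0.36 in Col did not pass. GFAT rose by 0.87 in mil4 and 0.75 in Col, opposite to its lower level in mil4 sid2. AT1G67910 had -0.94 in mil4 and 0.94 in Col, and passed in both. AT4G21870 and AT1G69760 were raised in Col, by 0.70 and 0.87, and their values of -0.28 and -0.22 in mil4 did not pass.

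**Figure D4:**
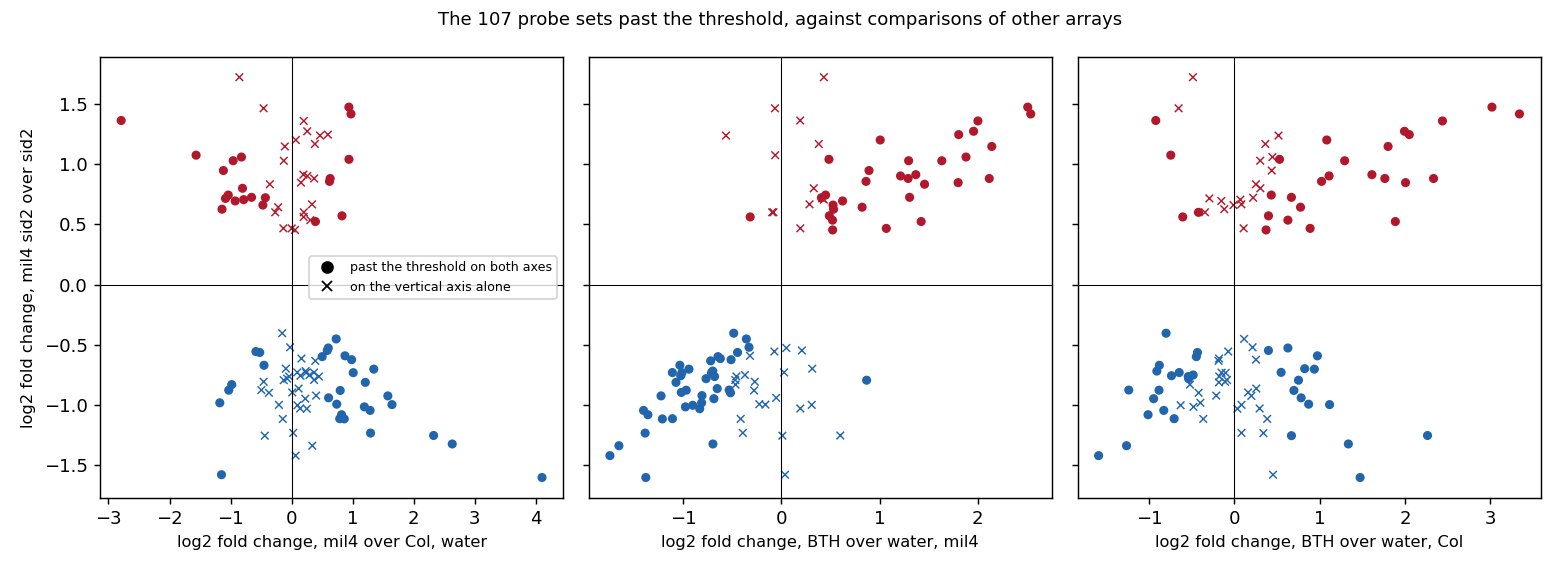
Log2 fold change of mil4 sid2 over sid2 (vertical axes) for the 107 probe sets past the threshold, against their log2 fold change in mil4 over Col (left), BTH over water in mil4 (middle) and BTH over water in Col (right); filled points pass the threshold on both axes and crosses on the vertical axis alone. In the middle panel 31 of the 45 upper points pass on the right-hand side and 39 of the 62 lower points on the left-hand side.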

How the data were processed

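Rosette RNA, 15 µg per sample, was hybridised to 24 ATH1 arrays in 6 groups of 4, grouped by their titles. The deposited table gives intensity on a linear scale for 22810 probe sets, and from the values the authors had scaled each array to the same 2% trimmed mean. The software and the probe summary were not stated in the sources used here. The hybridisation date and fluidics module came from the experiment record of each array. The records name no run. Arrays with the same recorded day and hour of hybridisation were taken here as 1 run, and days and runs were numbered in order. After leaving out 64 control probe sets, log2(intensity + 16) was tested with limma 3.58.1 in R 4.3.3 (1 mean per group over all 24 arrays, eBayes, 2-sided), adjusted by Benjamini-Hochberg over 22746 probe sets at a threshold of 0.05. The number of arrays limits the precision. No normalization was added.

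The platform annotation gave 1 gene for 13513 probe sets and several for 503, and 13484 of the 13513 matched the RefSeq table of TAIR10.1. For 147 genes with several probe sets the brightest was used. Named genes were the 12 largest rises and falls past the threshold with no overlap between groups, and up to 4 measured genes per list and 3 per family. The other called genes are also named, and were chosen after their values were seen. The comparison, the lists (symbols shared by several loci were settled by hand) and the families were chosen with earlier results of these data known. The fit was tested on simulated data with independent noise and the same spread in every group. Run, module and single-array effects were not simulated. Plots used Python 3.11.15, pandas 2.3.3, numpy 2.4.6 and matplotlib 3.10.9.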

Additional observations from a re-analysis of the deposited data

Results flagged for a closer look

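For 28 named genes the effect of mil4 in the sid2 background differed from its effect in the SID2 background by the interaction test of the limma fit at an adjusted p under 0.05, against 5.32% of all probe sets. The difference, given as the mil4 sid2 over sid2 log2 fold change minus the mil4 over Col one, was positive in 12 genes higher in mil4 sid2: AT5G50335 (2.58), EXPA8 (4.15), AT1G66880 (1.26), AT2G29320 (1.78), AT5G52190 (1.15), AT3G46600 (1.80), AT5G52780 (1.49), AT1G21590 (1.62), AT2G19310 (1.13), AT3G07870 (0.86), AT1G76400 (0.60) and AT4G01610 (0.47). It was negative in 16 genes lower in mil4 sid2: AT1G06640 (-1.10), AT3G10720 (-1.02), AT1G67910 (-2.05), AT1G75960 (-0.95), AT5G01015 (-1.10), AT3G11690 (-1.74), GTR1 (-0.90), AT1G19450 (-0.71), GFAT (-0.66), AT4G21870 (-1.67), AT2G34510 (-2.50), AT1G69760 (-1.73), AT2G34930 (-2.33), AT5G44050 (-1.90), AT1G68440 (-1.98) and AT5G48490 (-0.97). These genes were chosen by the sid2-background arrays that the interaction also uses, and the sid2-background arrays were hybridised on a day of their own.

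AT1G68440 had 1 array apart from its group: mil4 sid2 replicate 1 read 256, against 357 to 364.5 on the other 3 mil4 sid2 arrays. It lay farther from the sid2 arrays than they did, and the gene passed the test with each array left out in turn. This was the 1 such array among 74 groups of 4 arrays looked at, where chance alone gives about 1 in 20.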

How the results depend on the processing

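All 107 probe sets kept their sign and an unadjusted p under 0.05 under every alternative in which they were measured, and no named result reversed. The 107 were chosen on these same arrays, so this is no separate check. In the fits of the 8 arrays alone a sign could not change. The count of 107 (45 higher, 62 lower) was 101 at a pseudocount of 1, 147 at 64, 107 with quantile normalization (93 of them shared) and 117 with array weights. Median centring gave 74, of which 38 were lower, 101 were found without probe sets of several transcripts, and the run as a block gave 75, of which 29 were higher. Filters on dim probe sets gave 302 (144 higher, 158 lower) above the median intensity and 229 (105 and 124) at a mean log2 of at least 7, with fewer probe sets tested. An intensity trend with a robust prior gave 246 (121 and 125). The fluidics module as a block gave 21 (7 and 14). The fit of the 8 arrays alone gave 0 higher and 0 lower (smallest adjusted p 0.0886, 2330 at an unadjusted p under 0.05). The replicate block on those arrays gave 0 as well (0.454 and 2081). The replicate numbers were not treated as pairs, since same-numbered arrays deviated together with correlations of 0.13, -0.01, 0.12 and -0.07 and 3 of 8 arrays correlated best with their own number.

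Calls shared with mil4 against Col, 51 above, numbered 32 with median centring, 151 and 115 with the filters, 121 with the trend, 26 with the run block, 48 (36 of them opposite) with mil4 against Col fitted on 16 arrays alone, a setting added after the data were seen, 9 with the module block and 0 in both fits of the 8 arrays. The interaction, 1210 above, gave 660 with the run block. Without 1 array the count of calls ran from 24 to 105 (8 to 48 higher, 16 to 57 lower), the shared calls from 15 to 54 and the interaction from 1016 to 1211. The array left out was mil4 sid2 replicate 2 at the lowest count and sid2 replicate 4 at the highest. Under the module block 3 of 7 higher probe sets were raised by BTH in mil4 and 9 of 14 lower ones lowered. In that fit module and BTH are separated only through the sid2-background arrays, which also chose these probe sets. Without mil4 sid2 replicate 2 these were 4 of 8 and 11 of 16.

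AT1G13650, AT1G68440, AT2G19310, AT5G44050, AT5G48490 and GFAT passed in all 8 fits that left out 1 array, and AT5G48490, AT1G13650 and AT1G68440 failed only in the 2 fits of the 8 arrays. Of the 37 genes, 11 passed without sid2 replicate 1, 21 with the run block and 6 with the module block. The largest named rises, AT5G50335, EXPA8 and AT1G13470, passed neither without sid2 replicate 1 nor with the module block. They passed in 2, 6 and 1 of the 8 fits that left out 1 array. EXLA1, COR27, DFR and GSTU20 passed under some alternatives. The causes were not tested. Signal near background limits dim genes such as ROXY2 and GFAT.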

Other observations

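Of the 37 named genes past the threshold, 15 lie on chromosome 1 (40.5%), where 25.7% of the 13355 named genes lie. The part of that chromosome between AT1G65000 and AT1G77999 holds 9 of the 37 (24.3%), against 653 of all named genes (4.90%). These 9 are AT1G66880, AT1G76970 and AT1G76400, which were higher in mil4 sid2, and AT1G73600, AT1G69760, AT1G65490, AT1G75960, AT1G67910 and AT1G68440, which were lower. ICS1, the gene altered by sid2 in both groups, is annotated in the same stretch. The bounds of the stretch were chosen after the values were seen, the shares are a description with no test, and any part of local sequence differences between the lines in these values was not tested.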
